A study of Mus musculus with 2 samples.

Results

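The 8 genes described here encode enzymes that repair DNA bases damaged by alkylation or oxidation, and proteins that correct replication mismatches. The rule matched them by symbol, as genes for the repair of azoxymethane-type DNA damage, and all 8 were found among the 35529 genes of the table. They comprise the direct reversal enzyme Mgmt, the DNA glycosylases Mpg, Ogg1 and Mutyh, and the mismatch repair genes Msh6, Msh3, Pms2 and Mlh3. Expression was measured in C57BL/6 wild-type mice. The control library, called the normal colon pool, was made from normal colon of animals that received neither azoxymethane (AOM) nor dextran sodium sulfate (DSS), and the other library from adenomas in the colon of animals given AOM and DSS. Each library was a single pool of RNA from 6 individuals, so each condition has 1 library, with no replicate check and no test between conditions. The ages of the animals and the treatment schedule are not given in the sources used here, and an adenoma pool compared with whole normal colon also differs in its cell mix.

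AOM is converted in the body to a methylating species that modifies DNA bases, chiefly guanine. MGMT takes the methyl group off the oxygen of guanine and is used up in doing so, which restores the base without cutting the strand. Base excision repair instead begins with a glycosylase that cuts the damaged base from its sugar, after which the gap is opened, filled and sealed. Methylated guanine that escapes pairs with thymine, and the resulting mismatch is recognised by MutS-type proteins, such as MSH6 and MSH3, and processed with MutL-type proteins, such as PMS2 and MLH3. DSS injures the mucosa and brings inflammation, in which oxidised guanine is also formed, the lesion that OGG1 removes and that MUTYH guards against by excising adenine paired with it.

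The promoters of Ogg1 and Msh6 are shown because these members had the largest differences between the pools in each direction. Both are the 250 bases before the gene's start, from RefSeq on GRCm38.p6, printed 5′ to 3′ along the gene. Capitals mark the GC box GGGCGG on either strand, a short motif bound by Sp-type transcription factors. The Ogg1 window is chr6:113326726-113326975 on the plus strand, and the Msh6 window is chr17:87974800-87975049 on the plus strand.
Ogg1: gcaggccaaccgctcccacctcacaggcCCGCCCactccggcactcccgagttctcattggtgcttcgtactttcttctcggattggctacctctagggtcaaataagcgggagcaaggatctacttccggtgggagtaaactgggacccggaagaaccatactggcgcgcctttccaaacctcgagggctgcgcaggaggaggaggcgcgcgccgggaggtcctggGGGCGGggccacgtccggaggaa
Msh6: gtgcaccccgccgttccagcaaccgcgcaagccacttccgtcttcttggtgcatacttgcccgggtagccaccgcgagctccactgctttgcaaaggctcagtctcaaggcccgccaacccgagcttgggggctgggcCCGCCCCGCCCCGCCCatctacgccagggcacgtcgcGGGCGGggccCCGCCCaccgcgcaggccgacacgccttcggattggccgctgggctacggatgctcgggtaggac

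The GC box was found 2 times in the Ogg1 window and 5 times in that of Msh6, overlapping copies counted separately. RefSeq promoters were found for all 8 members, and 7 of the 8 held the motif at the first listed start, Mlh3 being the exception. Among the promoters of 8898 mRNA genes that reached 1 RPKM, 58.8% held it, and among all 32851 listed promoters 32.7%. The CCAAT motif, searched on both strands, stood in 6 of the 8, against 36.2% of the 8898. The E2F-type motif TTTCCCGC stood in 0 of the 8 windows and in 1.67% of the 8898. The Ogg1 window held 20 CpG dinucleotides and the Msh6 window 27, where the median of the 8898 was 15. The gene with the greatest positive difference and the gene with the greatest negative difference thus both had GC boxes and more CpG than the median.

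Levels are given as RPKM, reads scaled to transcript length and library size. The RPKM of all genes summed to 629215 in the normal colon pool and 828667 in the adenoma pool. Differences between the pools also followed transcript length. Ratios of RPKM between the pools, and between genes of unlike length across them, therefore depend on scaling and length, as described below. The totals recovered from the low values were 29548883 reads (normal colon) and 33174626 reads (adenoma). The deposited values also gave back the reads of each member and the transcript length that the authors had divided by, for Mgmt only up to a whole multiple. Intervals beside fold changes are exact (Clopper-Pearson) 95% binomial intervals of these reads. They cover counting error only, not differences between animals or library preparations.

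Levels were low to moderate, and differences between the pools were small. The 3 glycosylase genes were higher in the adenoma pool and 3 of the 4 mismatch repair genes lower, beyond counting error. The share of all genes beyond counting error was not computed, so these counts cannot be set against genes at large. Mgmt had a higher and Pms2 a lower value there, both within counting error of no difference, for Mgmt at the fewest reads that its values allow. On the scale log2((adenoma RPKM + 1)/(control RPKM + 1)), which understates differences of low genes, 0 of the 8 reached 2-fold in the adenoma pool upwards and 0 downwards. Of the 16517 genes reaching 1 RPKM in one pool or the other, 14.0% were 2-fold or more higher and 11.0% were 2-fold or more lower. At 1.5-fold, 2 members were higher (Ogg1 and Mpg) and 1 lower (Msh6), against 25.7% and 24.6% of all genes. The median log2 fold change of the 8 was 0.12, beside -0.02 over all genes and -0.17 over mRNA genes. All 8 passed the minimum of 1 RPKM, Mutyh only through its value in the adenoma pool.

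**Figure D1:**
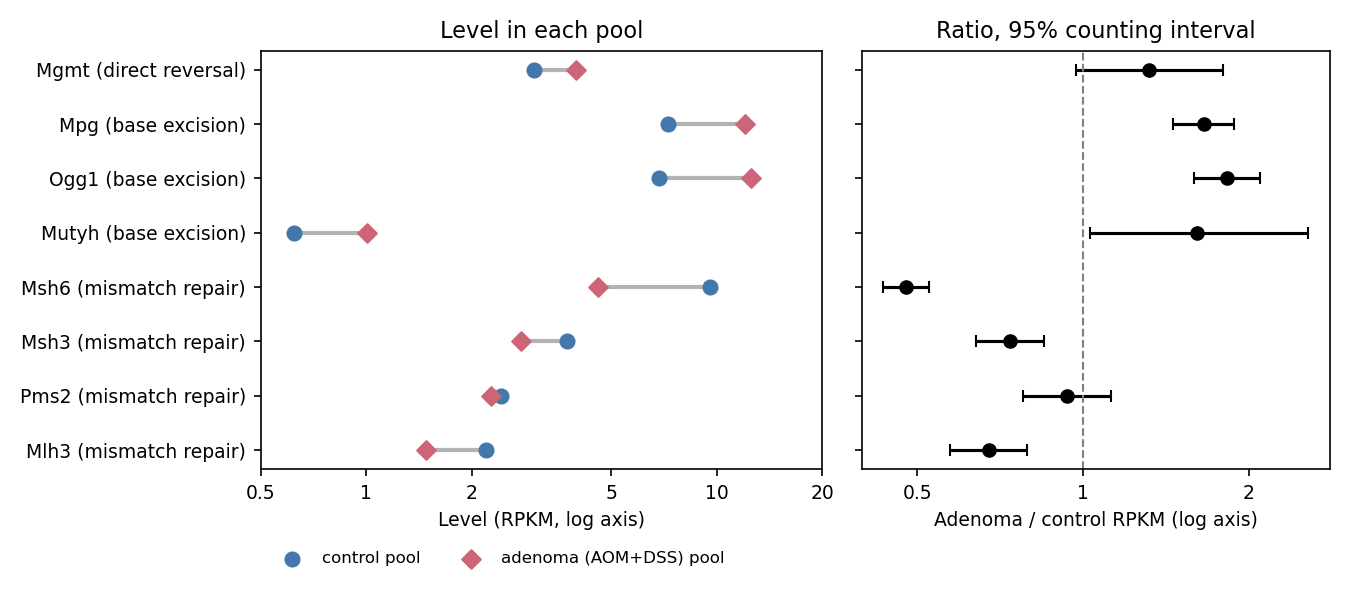
Left, the RPKM of each member (log axis) in the normal colon pool (circles) and the adenoma pool (diamonds); right, the ratio of the RPKM (log axis) with its 95% counting interval. Mgmt, Mpg, Ogg1 and Mutyh lie to the right of a ratio of 1 and the mismatch repair genes to the left, and the intervals of Mgmt and Pms2 include 1.

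Mgmt (chromosome 7, 136894614 to 137130266, plus strand, in GENCODE M21 on GRCm38) stood at 3.02 RPKM in the normal colon pool and 3.97 in the adenoma pool. These values correspond to 73 and 108 reads over a length of 819 bases. The ratio was 1.32 (0.970 to 1.80), an interval that includes 1 at these reads. A whole multiple of that length, with the same multiple of the reads, gives the same values, and the fewest reads were used. More reads would narrow the interval, so whether the difference exceeded counting error is not settled. On that choice, the gene that reverses the main mutagenic lesion of AOM was measured with fewer reads than any member but Mutyh.

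Mpg (chromosome 11, 32226505 to 32232700, plus strand) encodes the glycosylase that removes alkylated purines. It was at 7.27 RPKM in the normal colon pool and 12.1 in the adenoma pool, from 375 and 698 reads. The adenoma pool was 1.66-fold higher (1.46 to 1.88), beyond counting error. Nprl3, on the opposite strand, overlaps the exons of Mpg over 1340 bases in GENCODE, and whether the counting used strand is not given in the sources used here. Nprl3 itself stood at 5.79 and 5.46 RPKM, so its level was close in the pools while that of Mpg was higher in the adenoma pool.

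Ogg1 (chromosome 6, 113326972 to 113335068, plus strand) had the largest positive difference of the 8. It stood at 6.86 RPKM in the normal colon pool and 12.5 in the adenoma pool, from 313 and 642 reads, 1.83-fold higher (1.59 to 2.10). It shares 232 exonic bases with Camk1 on the opposite strand, which was at 28.2 and 39.0 RPKM. Part of the reads of Ogg1 could therefore belong to a more abundant neighbour that was also higher in the adenoma pool, and this was not tested.

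Mutyh (chromosome 4, 116807723 to 116819440, plus strand) was the lowest member in both pools, at 0.624 RPKM in the normal colon pool and 1.01 in the adenoma pool. Only 32 and 58 reads lay behind these values, and the 1.61-fold difference had a wide interval (1.03 to 2.57). Its start lies 83 bases from that of Toe1, transcribed the other way, which was at 6.98 and 9.68 RPKM. Both genes of this head-to-head pair were higher in the adenoma pool, and Toe1 was the more abundant in each.

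Msh6 (chromosome 17, 87975062 to 87990892, plus strand) encodes a mismatch recognition protein for single mispairs and small loops, including methylated guanine paired with thymine. It was the most abundant member in the normal colon pool, at 9.59 RPKM, against 4.57 RPKM in the adenoma pool. The RPKM ratio was 2.10-fold lower (1.90 to 2.31), from 1208.5 and 647 reads, and the log2 value with the pseudocount was -0.93, just inside the 2-fold threshold. The reads of Msh6 did not come out whole. Of the 8 members, Msh6 had the largest difference and the most reads in sum over the pools.

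Msh3 (chromosome 13, 92211872 to 92355003, minus strand), which recognises larger insertion loops, was at 3.75 RPKM in the normal colon pool and 2.77 in the adenoma pool. It was 1.36-fold lower (1.18 to 1.56), from 437 and 362 reads. The difference was beyond counting error and smaller than that of Msh6.

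Pms2 (chromosome 5, 143909964 to 143933968, plus strand), the MutL partner that nicks the strand to be corrected, was at 2.43 RPKM in the normal colon pool and 2.27 in the adenoma pool. Its ratio of 0.935 (0.779 to 1.13) was within counting error of 1. Its reads did not come out whole, at 232.3 for normal colon against 244 for adenoma, over a length of 3233 bases. Aimp2, which starts 117 bases away on the other strand, was at 18.7 and 29.7 RPKM. Adjusted for length as below, the log2 value of Aimp2 was -0.08 and that of Pms2 0.14.

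Mlh3 (chromosome 12, 85234520 to 85270599, minus strand), a MutL protein best known from meiotic recombination with a lesser part in mismatch repair, was at 2.20 RPKM in the normal colon pool and 1.48 in the adenoma pool. It was 1.48-fold lower (1.26 to 1.75), from 353 and 267 reads over 5428 bases, the longest transcript of the 8.

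The order of the members by RPKM differed between the pools mainly through Msh6. In the normal colon pool Msh6 stood above Mpg by 1.32-fold (1.17 to 1.48) and Mpg and Ogg1 could not be told apart (ratio 1.06, 0.911 to 1.24). Msh3, Mgmt, Pms2 and Mlh3 followed, and no neighbours among these 4 differed beyond counting error, with Mgmt at its fewest reads. In the adenoma pool Ogg1 and Mpg led, again not distinguishable (1.04, 0.932 to 1.16). Msh6 came next, 2.64-fold below Mpg (2.36 to 2.94) and within counting error of Mgmt at its fewest reads (1.15, 0.937 to 1.42). Msh3, Pms2, Mlh3 and Mutyh then followed, each beyond counting error of the one before it. The ratio of Ogg1 to Msh6 was 0.715 in the normal colon pool and 2.74 in the adenoma pool, and that of Msh6 to Msh3, which compete for the same MutS partner, was 2.56 and 1.65. Among mRNA genes past the filter, the level of Ogg1 stood at percentile 45.5 in the normal colon pool and 64.7 in the adenoma pool, and that of Msh6 at 55.2 and 40.1.

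The values as measured were split by role, and so were the transcript lengths. The direct reversal and base excision genes had lengths of 819 to 1745 bases and the mismatch repair genes 3233 to 5428. Log2 fold change against length gave a Spearman's rho of -0.86 over the 8 members and of -0.52 over 12833 mRNA genes. These are descriptions, since all points come from the same pair of libraries. Among mRNA genes the median difference (log2) was 0.72 between 640 and 960 bases, the range that holds Mgmt, and -0.66 between 5101 and 5997 bases, the range that holds Mlh3. Among the mRNA genes of its own length range, Mgmt lay at percentile 28.9, Ogg1 at 81.7, Mpg at 79.6 and Mutyh at 62.1. Msh6 lay at percentile 24.6 of its range, Msh3 at 56.3, Pms2 at 69.9 and Mlh3 at 70.4. No member lay in the outer 15% of the genes of like length on either side.

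**Figure D2:**
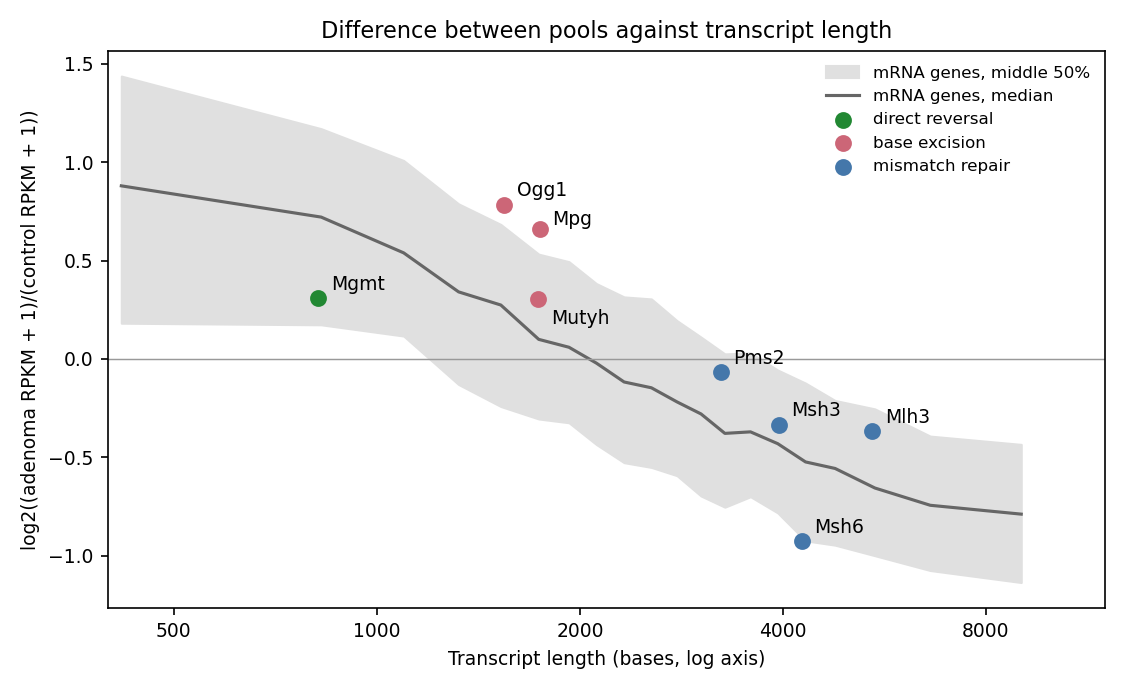
The log2 fold change of each member (coloured by role) against transcript length (log axis), with the median (line) and middle 50% (band) of mRNA genes in 20 length ranges. The members run down the trend, from Ogg1 at 0.78 to Msh6 at -0.93, with Ogg1 and Mpg above the band and Msh6 near its lower edge.

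With the length trend subtracted and the mRNA median added back, the split by role was no longer complete. Ogg1 had a length-adjusted log2 value of 0.34, Mpg 0.39 and Mutyh 0.03, so the 3 glycosylases stayed positive. Msh6 stayed negative at -0.59 and Msh3 at -0.08, while Pms2 (0.14) and Mlh3 (0.12) were positive. Mgmt moved from 0.31 to -0.58 when placed at its recovered length of 819 bases, and stood at 0.22 when placed at its GENCODE transcript of 2894 bases. Its sign therefore depended on the length assigned to it. The members' median was 0.07 on this scale, beside -0.17 over mRNA genes, and 0 of the 8 were at least 2-fold apart, against 16.3% of the 12833 mRNA genes.

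Rescaling both libraries to equal sums of RPKM lowered the median of all genes from -0.02 to -0.35. On that scale Mgmt was at 0.00, Ogg1 at 0.43, Mpg at 0.30 and Mutyh at 0.13, while Msh6 reached -1.27, Msh3 -0.64, Mlh3 -0.62 and Pms2 -0.35. Ogg1, Mpg and Mutyh were positive and Msh6 and Msh3 negative under each scaling and pseudocount tried. These signs are against 0 and not against the typical gene. With length adjustment the median of mRNA genes was -0.17, and Msh3, at -0.08, lay above it.

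**Figure D3:**
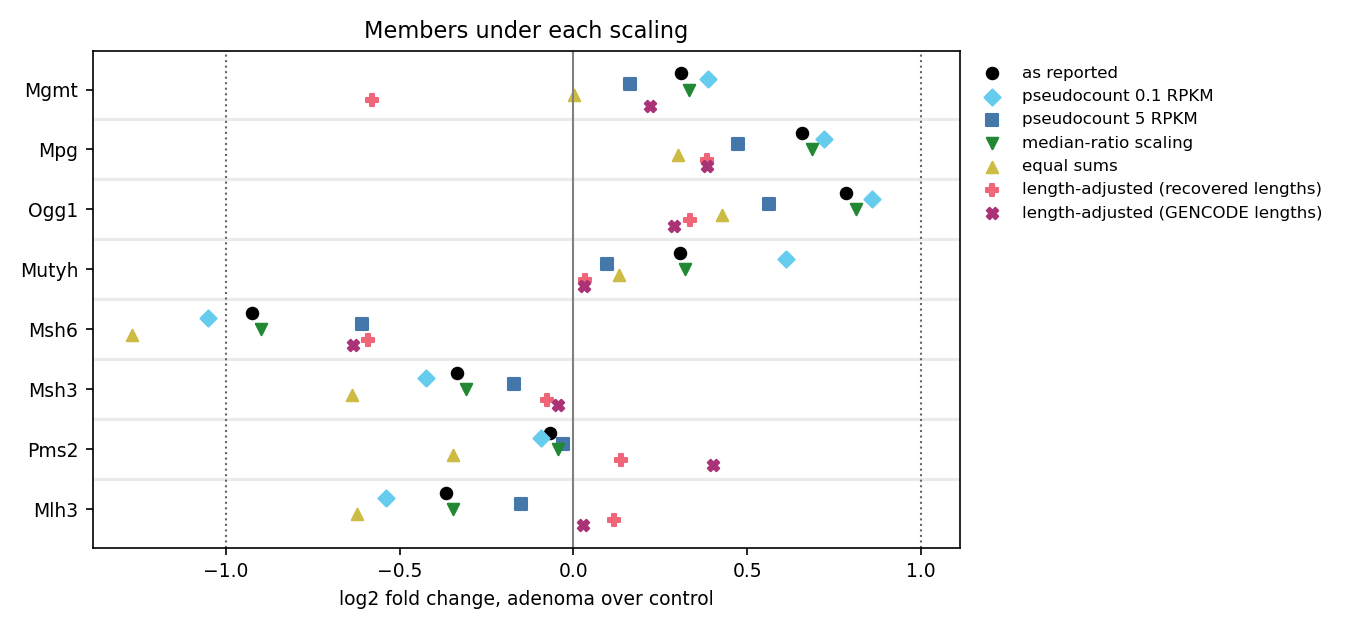
The log2 fold change of each member under each pseudocount and scaling, with dotted lines at 2-fold. Ogg1, Mpg and Mutyh stay right of 0 and Msh6 and Msh3 left of it, Mgmt, Pms2 and Mlh3 cross it or reach it, and Msh6 passes 2-fold at equal sums (-1.27) and at a pseudocount of 0.1 RPKM (-1.05).

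The other genes of these pathways were described as 7 lists. Among 5 other MutS and MutL homologs, 3 passed the filter, 0 were at least 2-fold apart in either direction and their median log2 fold change was 0.15. Pms1, a MutL homolog, was at 0.837 RPKM in the normal colon pool and 1.03 in the adenoma pool. Of 15 genes of mismatch excision and resynthesis, 2 reached 2-fold upwards and 0 downwards, against 14.0% and 11.0% of all genes; the list median was 0.27, or 0.23 adjusted for length. Rpa3, the small subunit of the single-strand binding protein, was at 26.2 and 72.6 RPKM, and Pold4, an accessory subunit of DNA polymerase delta, at 16.1 and 36.3. The most abundant, the replication clamp Pcna, was at 51.3 and 84.8. Rpa3 and Pold4 have short transcripts, of 638 and 913 bases, and their length-adjusted values were 0.38 and 0.23.

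Genes that act after the glycosylase reached 2-fold upwards about as often as genes at large. Of 14 genes downstream in base excision, 2 reached 2-fold upwards and 0 downwards, against 14.0% and 11.0% of all genes. Positive values were found for 10, against 49.2% of all genes and 41.9% of mRNA genes. The median was 0.18, or 0.12 adjusted for length. Apex1, the endonuclease that cuts at the site left without a base, was at 18.0 and 39.4 RPKM, 2.19-fold higher (2.01 to 2.40). Polb, the polymerase that fills the gap, was at 14.2 and 35.0 RPKM, 2.45-fold higher (2.22 to 2.72). Their length-adjusted log2 values were 0.58 and 0.72, so that 0 of the 14 were past 2-fold upwards, or 1 with GENCODE lengths. The scaffold Xrcc1, at 11.7 and 15.2 RPKM, and the ligase Lig3, at 5.54 and 3.84, act later and were less than 2-fold apart; both were chosen after their values were seen.

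Other glycosylases went both ways, with 0 of the 6 past the filter at least 2-fold apart and a median of 0.14 (0.08 length-adjusted). The most abundant, Tdg, which removes thymine from mispairs with guanine, was at 9.73 and 9.52 RPKM. Ung, which removes uracil, was at 8.06 and 4.34 RPKM, 1.86-fold lower (1.60 to 2.16). After length adjustment it lay at the 2-fold threshold, counted as 1 gene lower with recovered lengths and 0 with GENCODE lengths. Of 5 other alkylation repair genes 0 were at least 2-fold apart, and the median of 0.24 was -0.24 after length adjustment. Their most abundant member was Ascc1, at 24.6 and 43.4 RPKM. The dioxygenases Alkbh2 and Alkbh3, which remove methyl groups directly from adenine and cytosine, were at 5.83 and 7.09 and at 9.87 and 12.2 RPKM. Alkbh2 and Alkbh3 were chosen after their values were seen, for doing direct reversal as Mgmt does.

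Of 6 genes that clear damaged or unwanted nucleotides from the pool, 5 passed the filter, all 5 with positive values. Their median was 0.57 (0.52 length-adjusted), and 49.2% of all genes and 41.9% of mRNA genes were positive. After length adjustment 4 of the 5 were positive and 1 negative, where 39.0% of mRNA genes were positive. Itpa, which removes deaminated purine nucleotides, was the 1 gene at least 2-fold higher (14.0% of all genes), at 14.5 and 30.7 RPKM, and stood at 0.32 after length adjustment, under 2-fold. Of 10 genes commonly induced after DNA damage, 9 passed the filter, 3 with positive and 6 with negative values. Among them 0 reached 2-fold upwards and 1 downwards, against 14.0% and 11.0% of all genes. The median was -0.52, or -0.40 adjusted for length. The growth arrest gene Btg2 was at 42.6 and 18.9 RPKM, and the most abundant, the cell cycle inhibitor Cdkn1a, at 56.1 and 34.8.

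**Figure D4:**
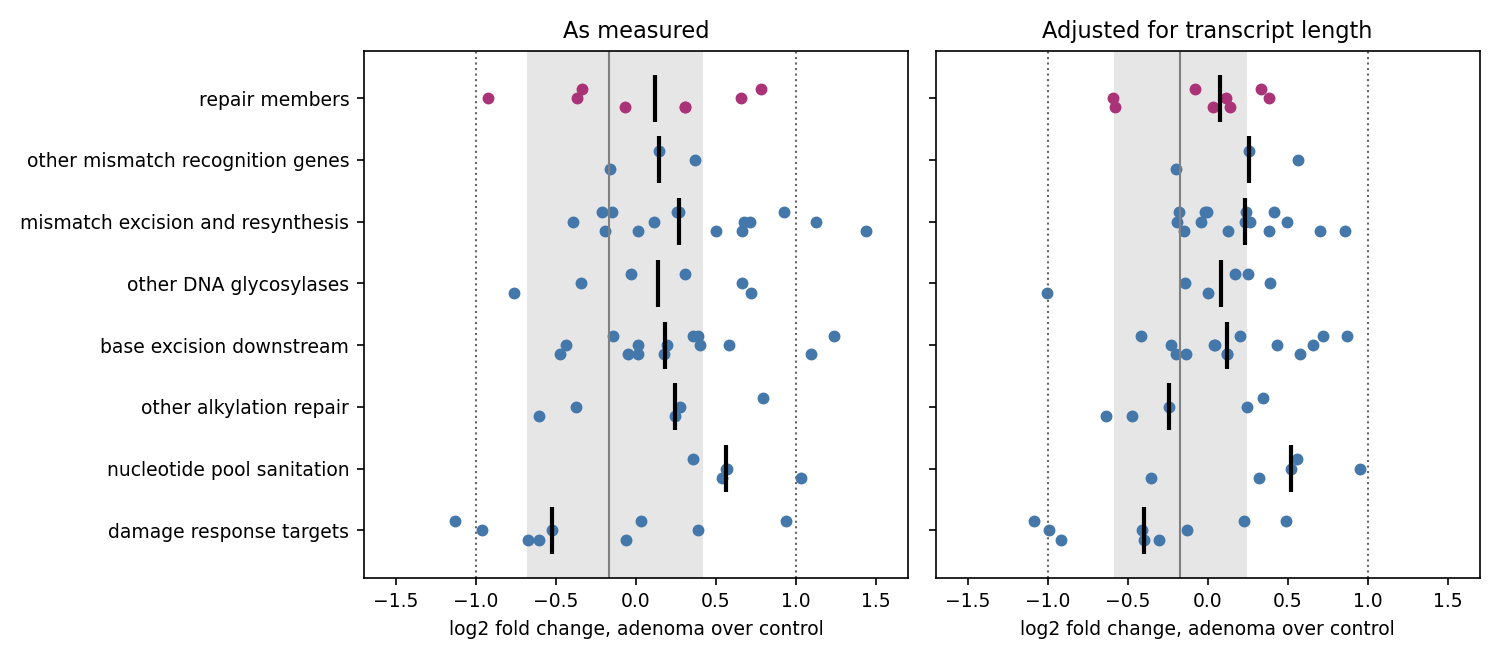
The log2 fold change of every member and of every list gene past the filter, as measured (left) and adjusted for transcript length (right). Short bars are list medians, the grey band and line the middle 50% and median of mRNA genes, and dotted lines 2-fold; the medians run from 0.57 for nucleotide pool genes to -0.52 for damage response targets as measured.

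Markers of cell types give the setting of these values. Colon epithelium markers were present in both pools, such as Epcam at 752 and 646 RPKM, and their summed level over 12 genes was 12936 RPKM in the normal colon pool and 8714 in the adenoma pool, 6 of 12 being at least 2-fold lower. Proliferation markers, which matter because expression of mismatch repair genes is linked to the cell cycle, summed to 201 and 209 RPKM over 12 genes. Their median log2 fold change was -0.06, 6 being positive and 6 negative, and 1 was at least 2-fold higher. Adjusted for length, the median was 0.14, beside -0.17 over mRNA genes, with 7 positive and 5 negative. On that scale 2 were at least 2-fold higher and 0 lower, against 16.3% of mRNA genes in either direction. The 10 immune cell markers summed to 511 and 891 RPKM, chiefly through Lyz2 (328 and 621) and S100a8 (0.777 and 120), while their median log2 fold change was 0.04, or -0.26 adjusted for length, with 4 of 10 negative before and 7 after that step. The 10 fibroblast and smooth muscle markers summed to 1977 and 1935. All 5 endothelial markers had negative values and summed to 32.5 and 15.2. No marker of these lists was at 0 in either pool, and the part of the cell mix in the members' values was not tested. In pooled tissue, fewer cells that express a gene and less RNA per cell cannot be told apart.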

How the data were processed

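RNA was extracted with Trizol, pooled from 6 individuals per group and sequenced as 1 library per group, per the labels. The authors deposited 1 table of RPKM for 35529 genes, per the file headers. The submitters' processing notes name the build GRCh37, a human assembly, although the symbols are mouse. The aligner, counting method, strand and annotation are not given in the sources used here.

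Read totals were recovered from short RNA genes of known length and from the most frequent ratio of low values (0.891). The ratio of a gene's values then gave its reads as a fraction, and the fewest reads with a whole length (within 0.01 bases) that held the GENCODE M21 coding sequence were taken. Where that length was over 1.25 times the longest coding transcript, fractional reads were allowed. This worked for 8018 of 12910 mRNA genes past the filter (62.1%), 5181 with whole reads, and for all 8 members. Of the recovered lengths, 66.9% were within 10% of the longest coding transcript. Other genes took the GENCODE length.

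Log2 fold changes used a pseudocount of 1 RPKM and genes reaching 1 RPKM in one pool or the other. The length adjustment subtracted the median of 20 length ranges of mRNA genes. No p-value was computed, because each group has a single library. Python 3.11.15, numpy 2.4.6, pandas 2.3.3 and scipy 1.17.1 were used, and the steps were tested on simulated data. The members and lists were chosen with earlier results of these data known. Named from each list are the genes at least 2-fold apart and the most abundant, and some of these are not reported here. Alternatives were other pseudocounts, filters, scalings, thresholds and lengths.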

Additional observations from a re-analysis of the deposited data

How the results depend on the processing

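No paired analysis was possible because each group holds 1 library, and none could be left out. No member was at least 2-fold higher under any scaling, pseudocount or filter tried. The count at least 2-fold lower was 1 (Msh6) with a pseudocount of 0.1 RPKM and with both libraries rescaled to equal sums. With a threshold of 1.5-fold, 2 members were higher and 1 lower. The members' median log2 fold change was 0.66 with a filter of 5 RPKM, which leaves only Mpg, Ogg1 and Msh6, and -0.17 at equal sums. It ran between 0.03 and 0.15 under the other settings. Over all genes, the count at least 2-fold higher (2316) was 1309 with a pseudocount of 5 RPKM, 1277 at equal sums, 812 after length adjustment, 871 with GENCODE lengths in that adjustment and 4245 at 1.5-fold. The count lower (1809) was 2858 with a pseudocount of 0.1 RPKM, 654 with 5 RPKM, 3358 at equal sums and 4067 at 1.5-fold. Of 182 values of the other lists under these alternatives, 149 were classed as unchanged from the reported value and 33 as moved. A count was unchanged when equal or within a ratio of 1.5, which a count staying at 0 meets. A median was unchanged when it moved by less than the median half-width of the members' counting intervals. The spread of the lists themselves was not used. The counts at least 2-fold higher of the excision and resynthesis, downstream base excision and nucleotide pool lists (2, 2 and 1) were 1, 1 and 0 with a pseudocount of 5 RPKM, 1, 0 and 0 at equal sums and 0 in all 3 after length adjustment with recovered lengths. The use of GENCODE lengths was chosen after seeing the data. Depth limited Mutyh most, followed by Mgmt if its fewest reads are taken. Differences between animals could not be estimated from pools.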
